A study of Gallus gallus with 6 samples.

Results

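The genes described here encode the Wnt ligands, their receptors and coreceptors, the R-spondins, the secreted Wnt antagonists and the genes of the nuclear response in the wall of the chick ductus arteriosus (DA). They were taken by gene symbol from the annotation of the array (names beginning with WNT, FZD, SFRP, DKK or RSPO and a number, and *frzb*, *wif1*, *lrp5*, *lrp6*, *lef1*, *tcf7*, *tcf7l2* and *axin2*), by a rule that reads symbols and no measured values. The rule found 35 genes of the 11528 genes with a single symbol, and each was read by 1 probe set. Of the genes named in the rule, *tcf7* was not among them and was not analysed here. RNA came from embryos of Hypeco Nera chickens at the internal pipping (IP) stage, when the beak has entered the air cell of the egg. The 3 tissues were the pulmonary artery-sided (proximal) part of the right DA, its descending aorta-sided (distal) part, and the aorta. Each tissue was hybridized on 2 arrays, 6 in all, with 100 ng of total RNA from the pooled tissue of 10 embryos per array. The sources name no treatment and no genetic change.

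Wnt proteins are lipid-modified secreted signals that bind Frizzled receptors. In the canonical branch, a Frizzled receptor and the coreceptor LRP5 or LRP6 stop the breakdown of beta-catenin, which then activates genes through LEF1 and the TCF factors. In the non-canonical branches, ligands such as WNT5A and WNT11 act on cell polarity, movement and calcium. R-spondins strengthen the signal through LGR receptors, whereas SFRP proteins, FRZB and WIF1 bind Wnt proteins outside the cell and DKK proteins act on the coreceptors. In vertebrate embryos these signals take part in the development of the outflow tract, the cardiac neural crest and smooth muscle.

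The deposited values are log2 values from robust multi-array averaging (RMA), so 1 unit stands for a doubling of intensity. The median of an array was 6.61 to 6.66 and its lower quartile 5.25 to 5.41. A value below the lower quartile cannot be told from background, since the values carry no detection call, and the level of one gene cannot be set against that of another. A gene was called higher or lower where the limma adjusted p over all 20804 probe sets was under 0.05. Whether both arrays of a tissue stem from different pools is not given, so p-values rest on a spread between arrays that may be technical only. In pooled tissue, fewer cells of a type and less RNA per cell cannot be told apart. The vessel wall was checked by its markers. Smooth muscle genes such as *myh11*, the smooth muscle myosin (11.07 to 12.20 over the 6 arrays), were present in all 3 tissues, with a mean log2 value over 5 measured markers of 11.12 and 11.28 in the proximal part, 10.94 and 11.03 in the distal part, and 9.26 and 9.32 in the aorta. The endothelial markers averaged 8.71 and 8.88 in the proximal part, 8.53 and 8.52 in the distal part, and 7.58 in both aorta arrays (8 markers).

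The Wnt genes called in at least 1 comparison were 2 ligands and 3 secreted antagonists. With 2 arrays per tissue, genes without a call are not shown to be equal between the vessels. Against the aorta, *wnt11*, *wnt5a*, *sfrp1* and *sfrp2* were higher in the proximal DA and *frzb* was lower. In the distal DA only *sfrp2* was called against the aorta, and between both parts of the DA only *wnt11* was called, higher in the proximal DA. For the proximal DA over the aorta, 5 of 35 genes were called (14.3%), 4 of them higher and 1 lower. The background is 5.66% of all probe sets in either direction, 3.33% higher and 2.34% lower. For the distal DA over the aorta, 1 of 35 was called higher (2.86%) and 0 lower by limma. The background is 1.60% in either direction, 0.952% higher and 0.644% lower. For the proximal over the distal DA, 1 of 35 was higher (2.86%) and 0 were lower by limma, where the background is 0.250% in either direction, 0.159% higher and 0.0913% lower. An unadjusted p under 0.05 was reached by 6 higher and 6 lower genes in the proximal DA over the aorta (18.1% of all probe sets), by 5 higher and 4 lower genes in the distal DA over the aorta (10.8%), and by 6 higher and 2 lower genes in the proximal over the distal DA (7.31%). The median log2 difference of the 35 genes was 0.04 for the proximal DA over the aorta, 0.09 for the distal DA over the aorta and -0.03 for the proximal over the distal DA. Over all probe sets, these medians were -0.02, 0.00 and -0.02.

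Of the ligands, *wnt11* differed most between the vessels on these arrays. By RT-PCR, the paper reports *wnt11* as higher in the proximal DA than in both other vessels at an earlier embryonic stage. Its text states no such RT-PCR difference for *wnt11* at the IP stage. From these same arrays, the paper lists *wnt11* among the melanogenesis genes with a high ratio of proximal to distal DA. WNT11 is a non-canonical ligand that acts on cell movement and on the shape of the outflow tract in vertebrate embryos. Its log2 values were 8.10 and 7.90 in the proximal part, 6.88 and 6.77 in the distal part, and 5.91 and 6.11 in the aorta. The 3 pairs of arrays did not overlap, and the means were 8.0 ± 0.14 in the proximal part, 6.83 ± 0.08 in the distal part and 6.01 ± 0.14 in the aorta (SD, n = 2 arrays each). The proximal DA exceeded the aorta by 1.99 (SE 0.15, 95% interval 1.63 to 2.35, adjusted p = 0.000774 from limma), a 3.97-fold difference in intensity. The proximal DA exceeded the distal DA by 1.18 (SE 0.15, 95% interval 0.82 to 1.53, adjusted p = 0.0447), which is 2.26-fold. The distal DA lay above the aorta by 0.81 (95% interval 0.46 to 1.17), and this difference did not pass over all probe sets (adjusted p = 0.0533 from limma, 0.00964 to 0.348 over the alternatives). The call between both parts of the DA stood close to the threshold. It was lost with a second quantile normalization of the deposited values and with the replicate number as a block (adjusted p = 0.0863 from limma). With the block, 0 of all probe sets were called and 1843 had an unadjusted p under 0.05. The call was also lost when either proximal or either distal DA array was left out. Such a fit called hardly any probe set, so this loss is not particular to *wnt11*. Over all alternatives the difference was 1.07 to 1.27 and the adjusted p 0.00219 to 0.368 in limma.

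WNT5A, the ligand best known for planar cell polarity and directed cell movement, showed the same order of means. In log2 values, *wnt5a* had 8.52 and 8.49 in the proximal part, 7.83 and 7.81 in the distal part, and 7.53 and 7.32 in the aorta. No array of one tissue reached the values of another. Over the aorta, the proximal DA was higher by 1.08 (SE 0.14, 95% interval 0.75 to 1.41, adjusted p = 0.00601 from limma), or 2.11-fold. The proximal DA lay above the distal DA by 0.68 (95% interval 0.35 to 1.02) and the distal DA above the aorta by 0.40 (0.06 to 0.73). Neither passed the threshold over all probe sets (adjusted p = 0.156 and 0.343 from limma).

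**Figure D1:**
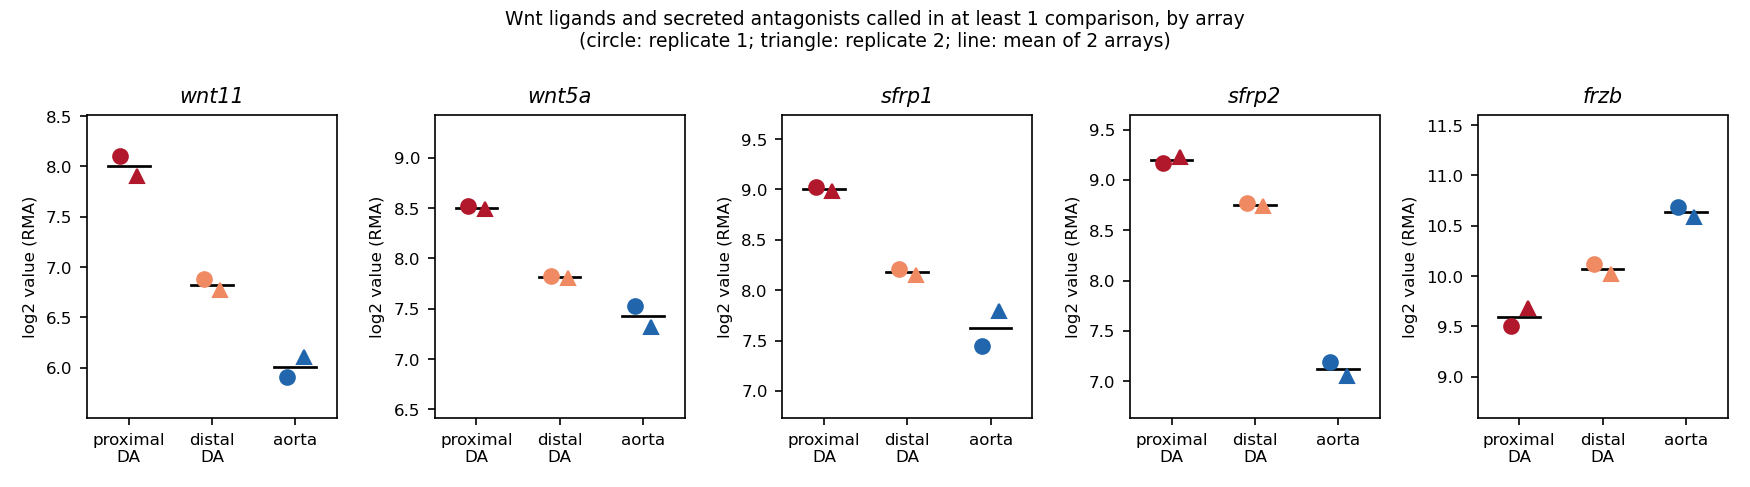
Log2 values (vertical axis, RMA) of the 5 Wnt genes called in at least 1 comparison, by tissue (horizontal axis). Circles and triangles are replicates 1 and 2 and lines are means of 2 arrays. In *wnt11*, *wnt5a*, *sfrp1* and *sfrp2* the proximal DA stood highest and the aorta lowest, with *wnt11* means of 8.0 in the proximal part, 6.83 in the distal part and 6.01 in the aorta, and in *frzb* the order was the opposite.

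The other 9 ligands were not called in any comparison. Among them, *wnt9a*, which encodes a ligand known from joints and valves, came closest: its log2 values were 6.15 and 5.79 in the proximal part, 5.61 and 5.42 in the distal part, and 5.28 and 5.20 in the aorta. The arrays of the 3 tissues did not overlap, but both aorta values were under the lower quartiles. The proximal DA lay above the aorta by 0.73 (95% interval 0.33 to 1.13, adjusted p = 0.0524 from limma), a size that is not exact because of these low aorta values. WNT5B is the closest relative of WNT5A, and *wnt5b* did not have its order of means. It had 7.98 and 7.80 in the proximal part, 7.94 and 7.89 in the distal part, and 7.56 and 7.42 in the aorta, so both parts of the DA overlapped with each other and lay above the aorta (0.40 and 0.43, adjusted p = 0.190 and 0.308 from limma). For the remaining 7 ligands (*wnt3*, *wnt4*, *wnt6*, *wnt7a*, *wnt8a*, *wnt9b* and *wnt10a*), the arrays of the proximal DA overlapped those of the aorta. Their differences from the aorta ran from -0.09 to 0.18 in the proximal DA and from -0.06 to 0.24 in the distal DA. All 6 values of *wnt7a*, at 4.75 to 5.14, were under the lower quartiles.

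The secreted antagonists went in both directions. Of 8 measured, *sfrp1* and *sfrp2* were called higher and *frzb* lower in the proximal DA than the aorta. Of all probe sets, 3.33% were called higher and 2.34% lower in this comparison. The proteins of these 3 genes carry the cysteine-rich domain of the Frizzled receptors, with which they bind Wnt proteins. The median absolute log2 difference of these 8 genes was 0.48 for the proximal DA over the aorta, against 0.18 over all probe sets.

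Among the 35 genes, *sfrp2* had the largest difference from the aorta. Its log2 values were 9.17 and 9.23 in the proximal part, 8.77 and 8.74 in the distal part, and 7.19 and 7.05 in the aorta. All 4 DA arrays thus stood well above both aorta arrays, and the proximal arrays stood above the distal ones. The proximal DA exceeded the aorta by 2.08 (SE 0.14, 95% interval 1.76 to 2.40, adjusted p = 0.000470 from limma) and the distal DA exceeded it by 1.64 (SE 0.14, 1.32 to 1.95, adjusted p = 0.00316). These are 4.23-fold and 3.11-fold differences in intensity. The proximal DA lay above the distal DA by 0.45 (95% interval 0.13 to 0.76), which was not called (adjusted p = 0.387 from limma).

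The related *sfrp1* had log2 values of 9.02 and 8.99 in the proximal part, 8.21 and 8.15 in the distal part, and 7.45 and 7.79 in the aorta. The tissues did not overlap, and both aorta arrays differed from each other by more than the arrays of the DA did. Compared with the aorta, the proximal DA was higher by 1.39 (SE 0.16, 95% interval 1.01 to 1.76, adjusted p = 0.00346 from limma), or 2.61-fold. The proximal DA lay above the distal DA by 0.82 (0.45 to 1.20) and the distal DA above the aorta by 0.56 (0.19 to 0.93), without a call (adjusted p = 0.128 and 0.195 from limma).

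In contrast, *frzb*, the gene of an antagonist first known from cartilage, was lowest in the proximal DA. Its log2 values were 9.50 and 9.68 in the proximal part, 10.12 and 10.02 in the distal part, and 10.69 and 10.59 in the aorta, again without overlap. The proximal DA was lower than the aorta, with a log2 difference of -1.05 (SE 0.14, 95% interval -1.39 to -0.71, adjusted p = 0.00709 from limma), so that intensity in the proximal DA was 0.483 of that in the aorta. The difference was -0.48 between the proximal and the distal DA and -0.57 between the distal DA and the aorta (adjusted p = 0.372 and 0.138 from limma).

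The other 5 antagonists were not called. DKK3 is a divergent member of the Dickkopf family. Its gene, *dkk3*, had log2 values of 11.04 and 11.10 in the proximal part, 11.20 and 10.94 in the distal part, and 11.77 and 11.49 in the aorta, and both differences from the aorta were -0.56 (95% interval -0.95 to -0.17, adjusted p = 0.113 and 0.215 from limma). Both parts of the DA had the same mean, with a 95% interval of -0.39 to 0.39. The coreceptor antagonists *dkk2* and *dkk4* and the SFRP gene *sfrp5* lay within 0.36 of the aorta in either part of the DA. The gene of Wnt inhibitory factor 1, *wif1*, had 6.35 and 5.39 in the proximal part, 5.61 and 5.58 in the distal part, and 5.49 and 5.43 in the aorta. A single array, proximal DA replicate 1, stood apart from the other 5. The proximal DA differed from the aorta by 0.41 (95% interval -0.25 to 1.07, adjusted p = 0.526 from limma), or -0.07 without that array, and *wif1* was named for the single array after its values had been seen.

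The Frizzled receptors were not called in any comparison. Of the 8 measured, 4 had both proximal DA arrays below both aorta arrays and 0 had both above, against 23.1% and 19.0% of all probe sets. At an unadjusted p under 0.05, 2 of the 8 passed, *fzd1* and *fzd4*, both lower in the proximal DA. Of all probe sets, 18.1% passed in this comparison in either direction, so 2 of 8 is near that share. The median log2 difference of the 8 receptors was -0.24 for the proximal DA over the aorta and -0.08 for the distal DA over the aorta. FZD4 is also the receptor of the vascular ligand norrin. Its gene, *fzd4*, had log2 values of 10.05 and 9.64 in the proximal part, 10.06 and 10.17 in the distal part, and 10.36 and 10.86 in the aorta. The proximal DA differed from the aorta by -0.77 (95% interval -1.27 to -0.26, adjusted p = 0.0991 from limma), and the arrays of each tissue were spread more widely than for *fzd1*. The receptor gene *fzd1* had 10.98 and 10.82 in the proximal part, 10.98 and 11.06 in the distal part, and 11.33 and 11.43 in the aorta (-0.48 for the proximal DA over the aorta, adjusted p = 0.112 from limma). For *fzd2*, with 9.33 and 9.11 in the proximal part, 8.70 and 8.89 in the distal part, and 8.99 and 9.11 in the aorta, the distal DA was lowest (0.43 for the proximal over the distal DA, adjusted p = 0.531 from limma). For *fzd10*, with 5.49 and 5.26 in the proximal part, 5.88 and 5.79 in the distal part, and 5.66 and 5.71 in the aorta, the proximal DA was lowest (-0.46 for the proximal over the distal DA, adjusted p = 0.409 from limma). The proximal values of *fzd10* lay close to the lower quartiles of their arrays (5.40 and 5.25), so this difference is not exact. The remaining Frizzled genes (*fzd3*, *fzd5*, *fzd6* and *fzd8*) differed from the aorta by -0.37 to 0.15 in the proximal DA.

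Of both coreceptors, *lrp5* lay lower in the proximal DA than the aorta without passing the threshold, and *lrp6* was nearly level. On the log2 scale, *lrp5* had 8.44 and 8.53 in the proximal part, 8.80 and 8.69 in the distal part, and 9.11 and 8.98 in the aorta. These 3 pairs did not overlap, and the proximal DA differed from the aorta by -0.56 (95% interval -0.89 to -0.23, adjusted p = 0.0670 from limma). For *lrp6* the difference was -0.06, with a 95% interval of -0.38 to 0.27. The R-spondin genes *rspo1*, *rspo2* and *rspo4* were not called, with differences of -0.22 to 0.22 for the proximal DA over the aorta, and all 6 values of *rspo4* were under the lower quartiles.

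The genes of the nuclear response were not called either. AXIN2 is a scaffold of the beta-catenin destruction complex, and its gene is a widely used target of canonical Wnt signals. On the log2 scale, *axin2* had 7.26 and 7.34 in the proximal part, 7.10 and 7.27 in the distal part, and 7.20 and 7.30 in the aorta. The tissues overlapped, and the proximal DA differed from the aorta by 0.05 (95% interval -0.28 to 0.38). The transcription factor gene *tcf7l2* also overlapped, at 8.05 to 8.29 over the 6 arrays. The transcription factor gene *lef1* had 5.17 and 4.96 in the proximal part, 5.35 and 5.09 in the distal part, and 5.93 and 5.52 in the aorta. Its 4 DA values were under the lower quartiles, so its difference of -0.66 in the proximal DA is not exact (adjusted p = 0.105 from limma).

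**Figure D2:**
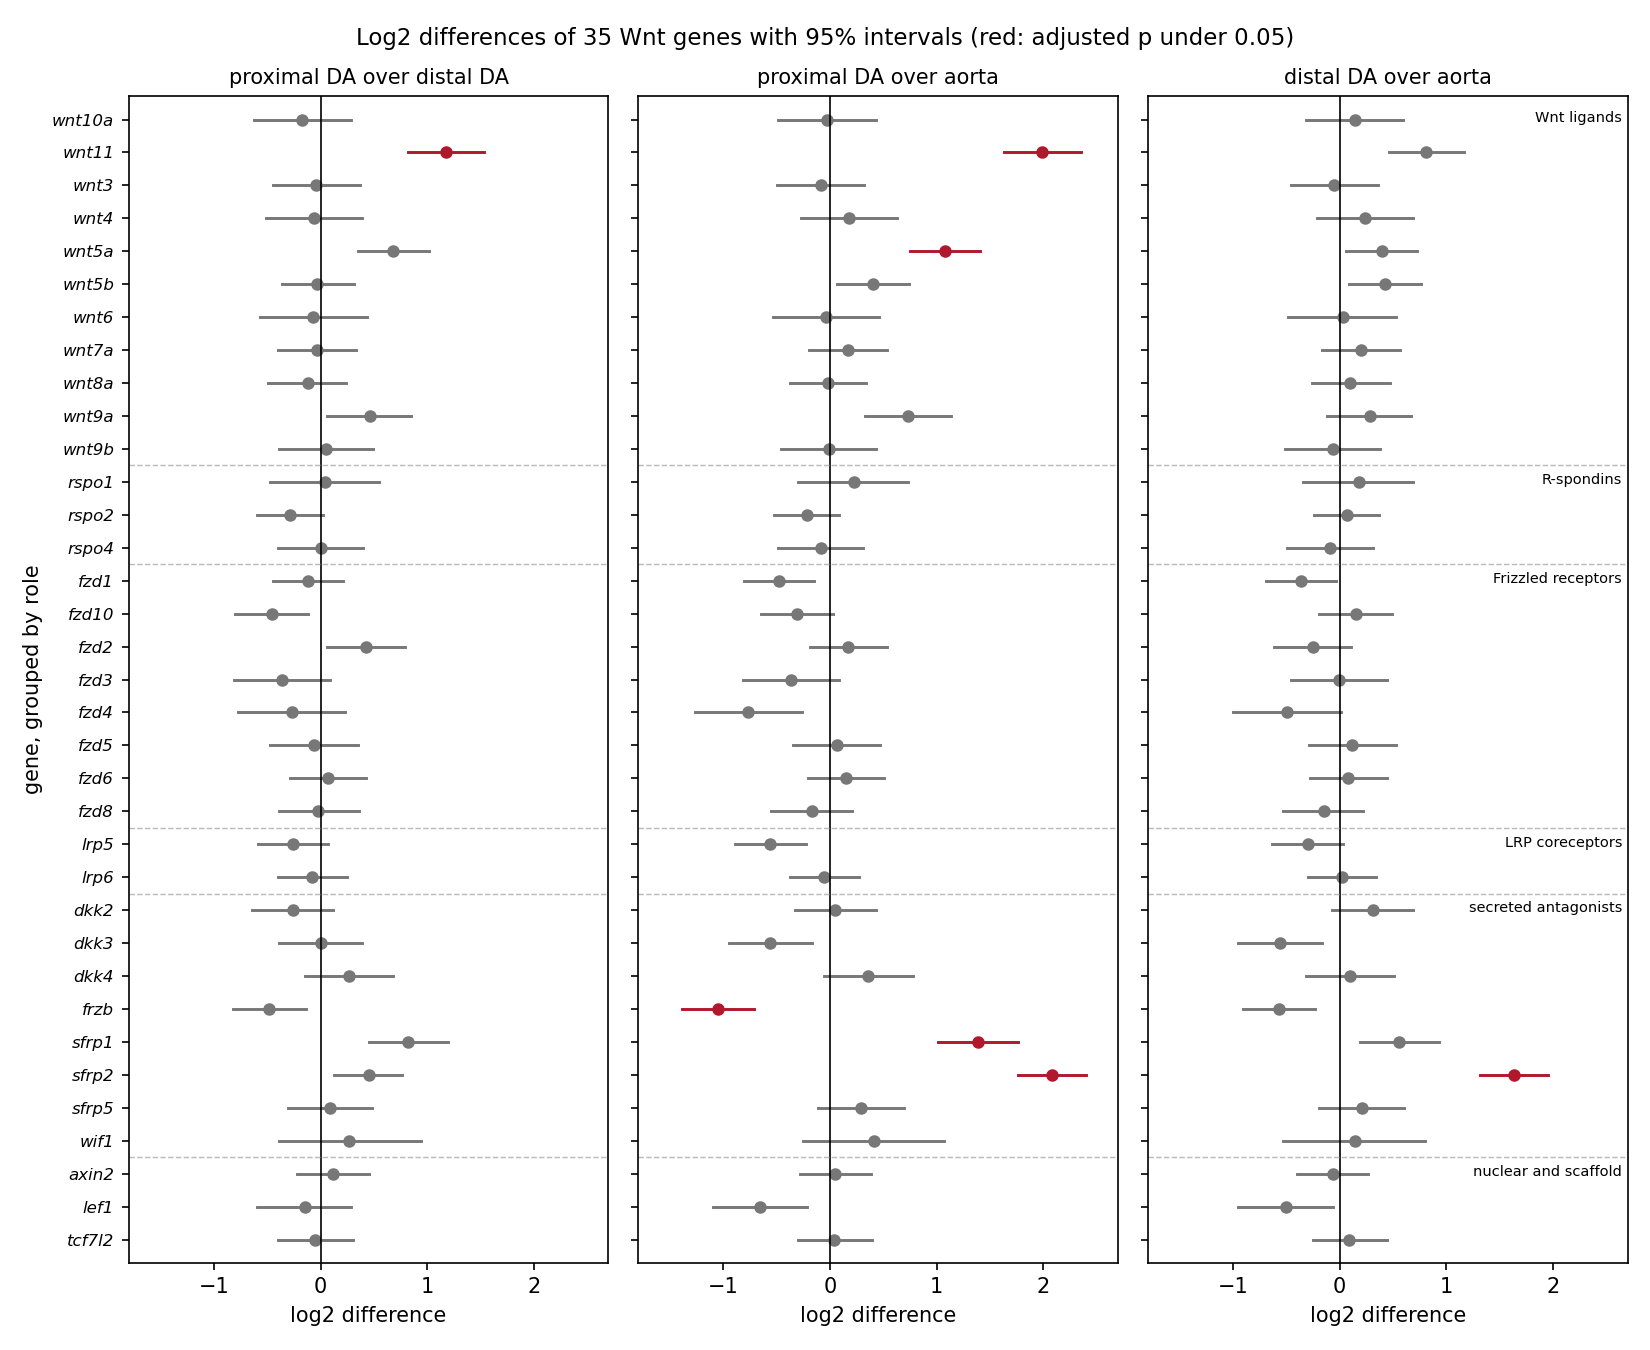
Log2 differences (horizontal axes) of the 35 Wnt genes (vertical axis, grouped by role) in the 3 comparisons, with 95% intervals from limma. Red marks an adjusted p under 0.05: *wnt11* between both parts of the DA (1.18), 5 genes for the proximal DA over the aorta, and *sfrp2* for the distal DA over the aorta (1.64).

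For 18 of the 35 genes, the mean of the distal DA lay between those of the proximal DA and the aorta. The means fell from the proximal DA through the distal DA to the aorta in 10 of the 35 genes and rose in that order in 8. Such orders were common over the array, at 20.9% and 26.2% of all probe sets, and are not particular to these genes. The 5 called genes were all among the 18, and in each of them the 3 pairs of arrays did not overlap. All 5 were called for the proximal DA over the aorta in these same arrays. A large difference between these tissues favours both traits, so neither adds evidence to the calls. Over the 35 genes, the arrays of the proximal DA and the aorta did not overlap in 18 (51.4%, against 42.2% of all probe sets), with the proximal DA higher in 8 and lower in 10 (19.0% and 23.1%). Those of the distal DA and the aorta did not overlap in 19 (54.3%, against 39.7%), 11 higher and 8 lower (19.9% and 19.8% of all probe sets). Those of both parts of the DA did not overlap in 14 (40.0%, against 32.7%), with the proximal DA higher in 7 and lower in 7 (14.7% and 18.0%). The comparisons share arrays, so these counts are not independent of each other. The distal DA was also set against the midpoint of the proximal DA and the aorta, a contrast added after the values had been seen. By limma it called 0 probe sets (0.00%, and 5.23% at an unadjusted p under 0.05). The distal DA lay above this midpoint by 0.59 for *sfrp2* (SE 0.12, adjusted p = 0.258 from limma) and differed from it by -0.18 for *wnt11* (adjusted p = 0.998).

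Further genes of the Wnt pathway were taken from 8 lists by role, with 51 of 68 listed genes measured. For the proximal DA over the aorta, 6 were called higher and 2 lower (15.7%, against 5.66% of all probe sets). For the distal DA over the aorta, 1 was higher and 1 lower (3.92%, against 1.60%). Between both parts of the DA, 0 were called by limma, and an unadjusted p under 0.05 was reached by 6 with the proximal DA higher and 2 with it lower (7.31% of all probe sets). The called genes lay at several levels of the pathway, from the receptor of R-spondins to partners of beta-catenin in the nucleus.

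LGR5, a receptor of R-spondins and a marker of stem cells in several mammalian epithelia, stood highest in the distal DA. On the log2 scale, *lgr5* had 8.97 and 9.22 in the proximal part, 9.61 and 10.37 in the distal part, and 7.51 and 7.67 in the aorta. All 4 DA arrays lay above the aorta, and both distal arrays lay above both proximal ones. It was above the aorta by 1.50 in the proximal DA (SE 0.25, adjusted p = 0.0146 from limma) and by 2.40 in the distal DA (SE 0.25, adjusted p = 0.00670), or 2.84-fold and 5.28-fold. The call of the proximal DA was lost when either of its arrays was left out. The proximal DA differed from the distal DA by -0.89 (95% interval -1.48 to -0.31, adjusted p = 0.319 from limma). The related *lgr4* did not pass, at 0.48 and 0.46 over the aorta (adjusted p = 0.307 and 0.526 from limma).

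Of the 7 feedback inhibitors and common targets, *nkd1* and *dact2* were called higher in the proximal DA than the aorta. Of the 9 genes of the destruction complex and Dishevelled, 0 were called by limma. In this comparison 3.33% of all probe sets were called higher and 5.66% in either direction, so 0 of 9 is not particular to that list. NKD1 and DACT2 both bind Dishevelled, the relay protein below the Frizzled receptors. For *dact2*, the log2 values were 8.24 and 7.91 in the proximal part, 7.26 and 7.44 in the distal part, and 6.54 and 6.93 in the aorta. Those of *nkd1* were 9.12 and 9.55 in the proximal part, 8.74 and 8.58 in the distal part, and 8.27 and 7.96 in the aorta. In both genes the 3 pairs of arrays did not overlap. The proximal DA exceeded the aorta by 1.34 for *dact2* (SE 0.19, adjusted p = 0.00840 from limma) and by 1.22 for *nkd1* (SE 0.19, adjusted p = 0.0126). The call of *dact2* was lost without proximal DA replicate 1, and that of *nkd1* without proximal DA replicate 2 or without aorta replicate 2. The other genes on the list of feedback inhibitors and common targets (*sp5*, *tnfrsf19*, *dact1*, *myc* and *ccnd1*) lay between -0.12 and 0.24 and were not called.

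Both partners of beta-catenin in transcription that were called went opposite ways. PYGO1 and BCL9L belong to one complex, in which BCL9 proteins join Pygopus to beta-catenin. In log2 values, *pygo1* had 7.31 and 7.63 in the proximal part, 7.89 and 7.75 in the distal part, and 9.18 and 9.06 in the aorta, with differences from the aorta of -1.65 in the proximal DA (SE 0.16, adjusted p = 0.00183 from limma) and -1.30 in the distal DA (SE 0.16, adjusted p = 0.0130). Those of *bcl9l* were 10.04 and 10.09 in the proximal part, 9.43 and 9.60 in the distal part, and 8.95 and 9.18 in the aorta, higher in the proximal DA by 1.0 (SE 0.15, adjusted p = 0.0102 from limma). The call of *bcl9l* was lost without either proximal DA array, and that of *pygo1* for the distal DA without either distal DA array. Beta-catenin itself, *ctnnb1*, was not called, with 10.47 and 10.43 in the proximal part, 10.48 and 10.39 in the distal part, and 10.62 and 10.68 in the aorta.

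Of 9 planar cell polarity genes, *prickle1* and *daam2* were called higher in the proximal DA than the aorta, by 0.73 (SE 0.13, adjusted p = 0.0217 from limma) and 0.77 (SE 0.17, adjusted p = 0.0447), where the background is 3.33% higher. The differences of the 9 genes were positive in 4 and negative in 5, with a median of -0.05. The lowest were those of *celsr1* (-0.50) and *vangl1* (-0.47), which were not called (adjusted p = 0.252 and 0.134 from limma). PRICKLE1 is a core protein of planar polarity and DAAM2 a formin that binds Dishevelled. In log2 values, *prickle1* had 7.18 and 7.19 in the proximal part, 6.59 and 6.56 in the distal part, and 6.40 and 6.51 in the aorta. The distal DA thus lay near the aorta, at a difference of 0.12. For *daam2* the values were 7.44 and 7.66 in the proximal part, 6.90 and 7.18 in the distal part, and 6.67 and 6.89 in the aorta. Each of these calls was lost with any 1 of the 6 arrays left out and when only both tissues compared were fitted. TPBG, a membrane protein known as a Wnt inhibitor from zebrafish, was lower in the proximal DA. The log2 values of *tpbg* were 6.49 and 6.80 in the proximal part, 7.32 and 7.86 in the distal part, and 8.66 and 8.36 in the aorta, a difference of -1.86 for the proximal DA over the aorta (SE 0.22, adjusted p = 0.00409 from limma).

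**Figure D3:**
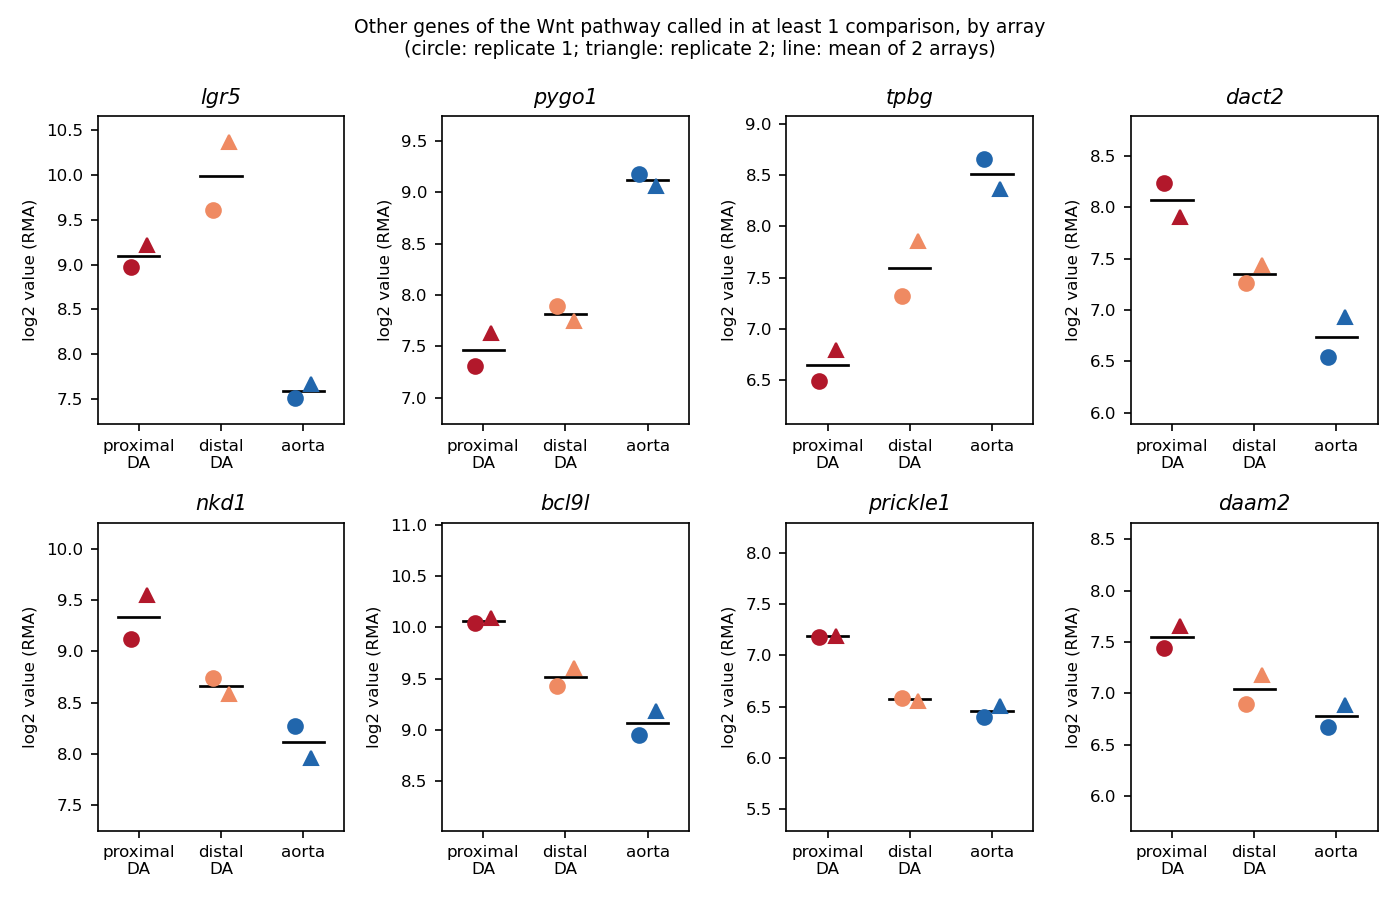
Log2 values (vertical axis, RMA) by tissue (horizontal axis) of the 8 further Wnt pathway genes called in at least 1 comparison. Circles and triangles are replicates 1 and 2 and lines are means of 2 arrays. The distal DA stood highest for *lgr5*, at 9.61 and 10.37, and between the other tissues in the 7 other genes.

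Markers of other cell types moved with some of these differences, and their part in them was not tested. Of 5 measured melanocyte markers (8 listed), 4 were called higher in the proximal DA than the aorta, against 3.33% of all probe sets. Tyrosinase, *tyr*, had 6.58 and 7.91 in the proximal part, 4.45 and 4.41 in the distal part, and 4.55 and 4.88 in the aorta. The log2 of the summed intensity of the 5 melanocyte markers was 8.87 and 9.75 in the proximal DA, 7.61 to 7.73 in the distal DA and 7.63 to 7.74 in the aorta. Set against the aorta, the median of their log2 differences was 2.15 for the proximal part and 0.12 for the distal part. All distal DA and aorta values of *tyr*, *tyrp1* and *dct* were under the lower quartiles, so these medians are not exact. The mean log2 value of the 5 melanocyte markers was 6.53 in proximal replicate 1 and 7.38 in proximal replicate 2. Of 8 measured lung and airway epithelial markers (10 listed), 4 were called higher in the proximal DA than the aorta, again against 3.33%. Their summed intensity (log2) was 10.93 to 11.08 in the proximal DA, 9.18 to 9.37 in the distal DA and 9.28 to 9.32 in the aorta. In the proximal DA this sum rested mostly on *cyp2c45* (9.90 and 9.17) and *lamp3* (8.37 and 9.97). The markers *lamp3*, *krt7*, *cdh1* and *muc1* were not called, at 1.53, 0.99, 0.21 and 0.21 over the aorta. The epithelial adhesion gene *epcam* had 7.18 and 6.05 in the proximal part, 4.95 and 4.83 in the distal part, and 4.85 and 5.19 in the aorta, so that it was higher in the same proximal array as *wif1*. The surfactant protein gene *sftpa2*, at 6.60 and 7.16 in the proximal DA, was higher in the other. The paper names this probe set *sftpa1*, and it names the one taken as *sftpa1* here lung lectin. For *epcam*, *sftpa1* and *sftpa2*, all distal DA and aorta values were under the lower quartiles, so their differences are not exact. All called markers of the melanocyte and epithelial lists stand in the paper's tables of genes with a high proximal to distal ratio. Those tables come from these same arrays, and the lists were chosen with earlier results known. Neither count thus adds evidence of its own.

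Markers of smooth muscle and endothelium were also higher in the DA, and fibroblast and adventitial markers were divided. Against the aorta, 4 of 5 measured smooth muscle markers (10 listed) were called higher in the proximal DA and all 5 in the distal DA. Of 8 measured endothelial markers (10 listed), the same comparisons called 5 and 3 higher. Of all probe sets, these comparisons called 3.33% and 0.952% higher. Of 6 measured fibroblast and adventitial markers (8 listed), 1 was higher and 3 were lower in the proximal DA than the aorta (3.33% and 2.34% of all probe sets). The higher one was *pi16*, a peptidase inhibitor gene of adventitial fibroblasts (2.39 for the proximal DA over the aorta, SE 0.21, adjusted p = 0.00138 from limma), and the lower ones were *lum*, *dpt* and *pdgfra* (-1.70, -1.72 and -0.85, adjusted p = 0.00127, 0.00485 and 0.0215). The collagen genes *col1a1* and *col1a2* were not called, at 0.16 and -0.06. The proteoglycan gene *lum* had 10.74 and 10.57 in the proximal part, 11.50 and 11.60 in the distal part, and 12.45 and 12.26 in the aorta. The summed intensity (log2) of the fibroblast list was 14.34 to 14.56 in the proximal DA, 14.53 to 14.55 in the distal DA and 14.58 to 14.69 in the aorta. In every list, a gene counts as measured where a probe set carried its symbol alone. The measured genes of the nerve and Schwann cell (4 of 9 genes), mesothelial (3 of 7) and blood cell lists (3 of 8) were not called in any comparison by limma. Most genes of these lists were left out by that rule, so the lists say little about those cells. Among those left out, *upk1b*, *prg4* and *mbp* stand in the paper's table of genes with a high ratio of proximal to distal DA. The melanocyte marker *mlana*, also left out, stands there too. The arrays thus read these genes, under other annotation.

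**Figure D4:**
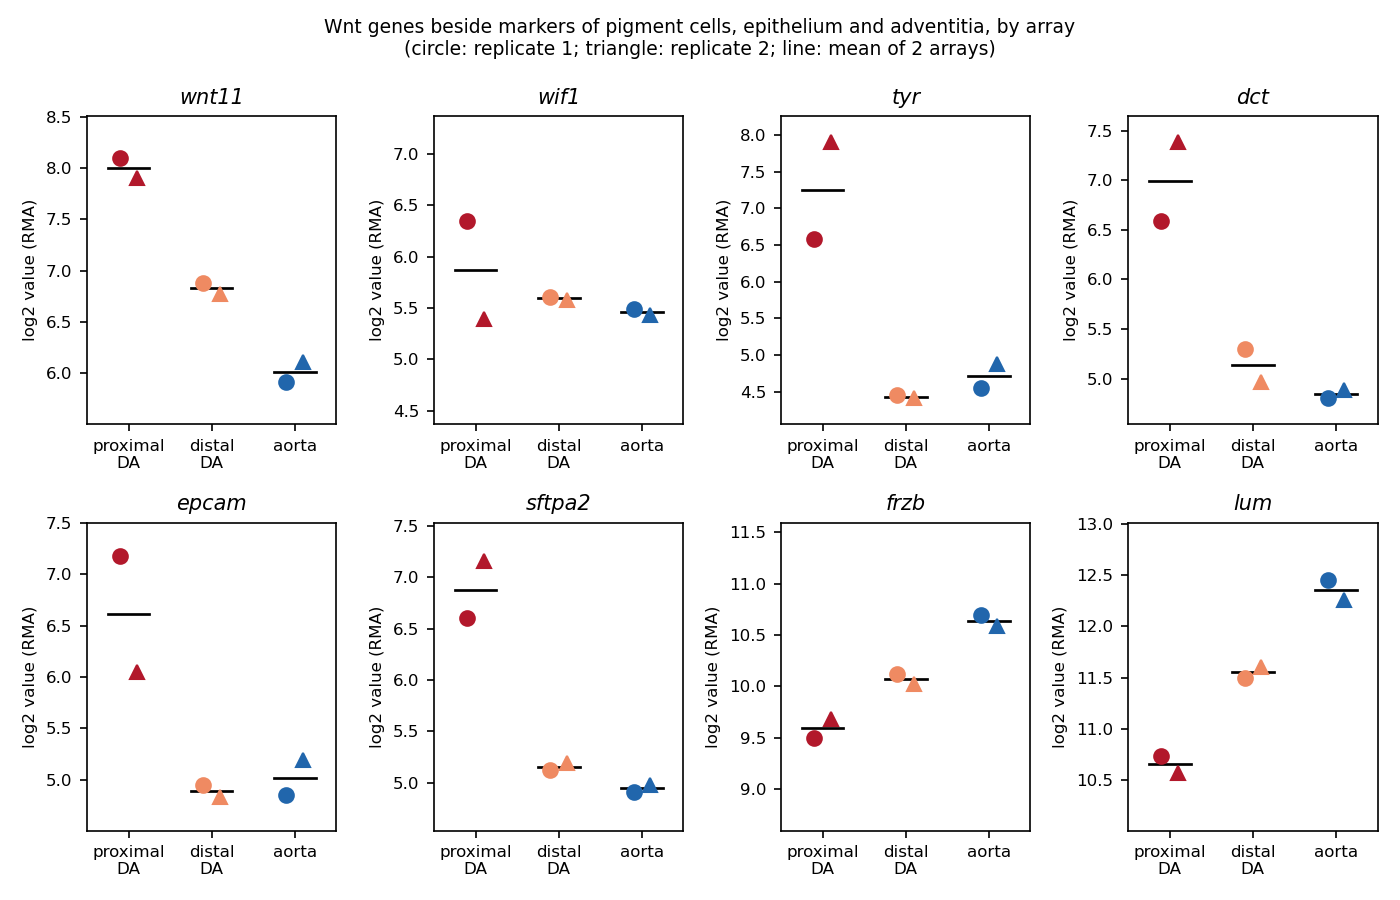
Log2 values (vertical axis, RMA) by tissue (horizontal axis) of *wnt11*, *wif1* and *frzb* beside markers of pigment cells (*tyr*, *dct*), epithelium (*epcam*, *sftpa2*) and adventitia (*lum*). Circles and triangles are replicates 1 and 2 and lines are means of 2 arrays. In the proximal DA, *tyr* stood at 6.58 and 7.91, *epcam* at 7.18 and 6.05 and *lum* at 10.74 and 10.57. The fibroblast and adventitial list was divided: *pi16*, not shown, was higher in the proximal DA than the aorta (2.39), and *col1a1* and *col1a2* were not called (0.16 and -0.06).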

How the data were processed

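The authors hybridized RNA of 3 tissues to Affymetrix GeneChip Chicken Gene 1.0 ST arrays, 2 arrays per tissue, and ran RMA in the oligo package, which corrects the background, applies quantile normalization and combines probes into probe sets. The deposited log2 values of 20804 probe sets, rounded to 2 decimals, were used as given. All 6 columns were matched to a tissue by the labels, and 0 columns stayed unmatched. No coordinates are reported, since the sources do not give the genome build of the array's own annotation. All 3 tissues were fitted together in limma 3.58.1 (under R 4.3.3, with lmFit and eBayes; 3 residual and 4.40 prior degrees of freedom), with Benjamini-Hochberg adjustment over all probe sets and a threshold of 0.05. Known changes in simulated data served to test the code. The median SE of a difference was 0.167, with a precision limited by the number of arrays. The symbols of all 35 genes were found in RefSeq (GRCg7b). Promoter letters and protein identities, which had been planned, were not analysed here.

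The genes, the lists and the tests were chosen with earlier results of these data known. The rule for naming gave array values for every member with a call, for *wnt11*, and for the 3 members without a call and with the smallest p in each comparison; other members and pathway genes shown were picked with their values in view. As alternatives, only the tissues compared were fitted, or eBayes was run with trend and robust. The deposited values, already quantile normalized in RMA, were normalized once more by quantile or by cyclic loess. Only probe sets brighter than the median were tested, or a log2 difference of at least 1 was required. Probe sets were reduced to 1 median per gene, or the replicate number was a block. Each array was also left out in turn, which assumes that a lone array varies like those of the other tissues.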

Additional observations from a re-analysis of the deposited data

How the results depend on the processing

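Of the 35 Wnt genes, 5 were called for the proximal DA over the aorta, and all 5 kept their call under every alternative run. That count was 10 in the fit over genes, which tests only the 11528 genes with a symbol and leaves the values of these genes as they are. Calls over all features rose as well, to 770 higher and 582 lower of 11528 genes. The main fit called 692 higher and 486 lower of 20804 probe sets. Between the proximal and the distal DA, the 1 call (*wnt11*) became 0 with the second quantile normalization and with the replicate number as a block, and 3 in the fit over genes. Over all features, the second quantile normalization called 24 higher and 18 lower, the block 0, and the fit over genes 141 higher and 87 lower. The main fit called 33 higher and 19 lower. Between the distal DA and the aorta, the 1 call (*sfrp2*) became 2, with *wnt11* added, with trend and robust, with cyclic loess, in the brighter probe sets and in the fit over genes. Over all features these fits called, in the same order, 235, 217, 278 and 321 higher and 161, 125, 170 and 224 lower. The main fit called 198 higher and 134 lower. Of the further pathway genes, the 8 calls between the proximal DA and the aorta were 11 in the fit over genes, 10 in the brighter probe sets and 3 to 6 with 1 array left out. The lowest count, 3, came without either proximal DA array, and 5 were called without aorta replicate 2. Their 2 calls between the distal DA and the aorta were 4 in the fit over genes and 1 to 2 with 1 array left out (1 without either distal DA array), and 1 (*tpbg*) was called between both parts of the DA in the fit over genes. For the proximal DA over the aorta, the brighter probe sets gave 734 higher and 540 lower of 10397. The main fit gave 692 and 486 of 20804 probe sets. In both comparisons with the aorta, calls over all probe sets also fell with any 1 array left out. These rises and falls are thus not particular to the pathway genes. Of the named genes refitted under the alternatives, 1 changed direction: *wif1*, at 0.41 for the proximal DA over the aorta, was -0.07 to 0.89 with 1 array left out, the lowest without proximal DA replicate 1. Deviations of arrays of the same replicate number from their tissue means correlated at 0.321 between the proximal and distal DA, 0.199 between the distal DA and the aorta, and -0.0339 between the proximal DA and the aorta. These values do not settle whether the numbers pair the arrays, and the main fit took no pairing. With the block, 7 Wnt genes were called between the proximal DA and the aorta, where 714 of all 20804 probe sets were called higher and 506 lower. With 2 arrays per tissue and no detection call, differences of genes near the lower quartile are not exact.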

Other observations

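Some Wnt genes lie side by side in RefSeq (GRCg7b), with 0 protein-coding genes between them. The neighbours *wnt6* and *wnt10a* were not called, and their differences between the proximal DA and the aorta were -0.04 and -0.03. The neighbours *wnt3* and *wnt9b* were not called either, at -0.09 and -0.01. No called member stood in such a pair.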
